A study of Mus musculus with 23 samples.

Results

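Ryr1 and Cacng1 encode muscle calcium channel proteins, and their DNA methylation was followed through 25 restriction fragments, 18 of Ryr1 and 7 of Cacng1, of 173430 fragments in the count table. A fragment was taken when it overlapped the mm9 gene body of either gene or the 2000 bp upstream of its start. Both genes were selected on earlier results of these libraries: the read counts of a Ryr1 exon fragment in myoblasts, myotubes and embryonic stem cells, and those of a Cacng1 fragment in muscle and embryonic stem cells. Comparisons with embryonic stem cells are therefore given as a description, without p-values for the fragments of Ryr1 and Cacng1.

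Methylation was read by AIMS-seq (amplification of inter-methylated sites) in 23 mouse libraries of 9 groups. The enzyme SmaI first cuts unmethylated CCCGGG sites and leaves blunt ends. Its partner XmaI next opens the methylated sites that are left, and adaptors join only its cohesive ends, so the reads of a fragment come from molecules methylated at both of its end sites. More reads stand for more such molecules, not for a percentage of methylation, and short fragments amplify better than long ones.

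The muscle group was whole skeletal muscle of male mice, 2 of mixed 129Sv/C57BL/6J background (replicates Y-27 and Y40) and 1 C57BL/6J. Myoblasts were male C57BL/6J precursor cells that were proliferating at passage 8 to 10, in 3 cultures numbered 21, 27 and 26. The same 3 cultures were differentiated into myotubes for 1, 2 and 4 days. Single libraries held uncultured, freshly isolated muscle precursor cells, one without and one 3 days after cardiotoxin (CTX) injury. Passage 0 cells were 2 proliferating libraries, of cultures 26 and 27. Embryonic stem cells (ESC) were the lines CGR8 (129Sv), with a technical replicate library, RD1 (129X1/SvJ) and E14Tg2 (129/Ola). The CGR8 libraries were summed, so ESC had n = 3 lines in 4 libraries. All ESC lines were of 129 backgrounds and all precursor cells and cultures of C57BL/6J, so strain and cell type cannot be told apart in comparisons of cultures with ESC. Muscle also differs in part in strain from the cultures and from ESC, because 2 of its 3 animals were of mixed background. Whole muscle holds many cell types besides myofibers, and fewer cells that carry a methylated fragment cannot be told apart from less methylation per cell. RNA was not analysed here, so the labelled cell types were not checked against marker expression.

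The libraries held 6237851 to 14696855 reads, which allow a fragment with 0 reads up to 3 reads, from counting error alone. Fragments of 200 to under 2000 bp gave 92.37% of the reads, although they are 16.01% of the fragments. Fragments of 2000 bp or longer took 1.98 to 2.6% of the reads in muscle, 3.88 to 6.37% in myoblasts and 10.02 to 12.11% in ESC. Levels below are per-million read counts (CPM), relative to all reads of a library, and group values are mean ± SD. Fitted log2 changes are from edgeR for the first group named over the second, and are scaled by TMM, which removes shifts shared by most fragments, so that they can differ from the ratio of CPM values.

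Ryr1 is the calcium release channel of the sarcoplasmic reticulum of skeletal muscle. It opens when the voltage sensor in the transverse tubule, the L-type calcium channel Cav1.1, moves on depolarisation. Cacng1 is the gamma subunit of that skeletal muscle L-type channel, and restrains its calcium current.

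Ryr1 (ENSMUSG00000030592.9) lies on the minus strand of chromosome 7 from 29788359 to 29910170 on mm9, with 106 exons. Cacng1 (ENSMUSG00000020722.5) lies on the minus strand of chromosome 11 from 107564532 to 107577836, with 4 exons. Sequences are shown for the 3 fragments that carry most of the differences described: the 412 bp Ryr1 exon fragment and the 1056 bp Ryr1 intron fragment by their first and last 100 bases, where reads begin, and the 249 bp Cacng1 fragment whole. They are printed from the mm9 plus strand, 5′ to 3′, and capitals mark the CCCGGG sites that must both be methylated for a fragment to be read.
Ryr1 412 bp fragment, first 100 bases, chr7:29889337-29889436: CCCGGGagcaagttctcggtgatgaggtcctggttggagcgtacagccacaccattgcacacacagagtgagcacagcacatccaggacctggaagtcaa
Ryr1 412 bp fragment, last 100 bases, chr7:29889655-29889754: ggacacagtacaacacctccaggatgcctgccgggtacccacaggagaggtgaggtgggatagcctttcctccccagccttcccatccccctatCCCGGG
Ryr1 1056 bp fragment, first 100 bases, chr7:29811754-29811853: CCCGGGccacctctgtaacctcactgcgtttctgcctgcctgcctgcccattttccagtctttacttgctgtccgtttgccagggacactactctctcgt
Ryr1 1056 bp fragment, last 100 bases, chr7:29812716-29812815: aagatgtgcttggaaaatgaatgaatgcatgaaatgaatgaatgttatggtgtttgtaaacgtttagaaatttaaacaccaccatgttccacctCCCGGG
Cacng1 249 bp fragment with both sites, chr11:107579668-107579922: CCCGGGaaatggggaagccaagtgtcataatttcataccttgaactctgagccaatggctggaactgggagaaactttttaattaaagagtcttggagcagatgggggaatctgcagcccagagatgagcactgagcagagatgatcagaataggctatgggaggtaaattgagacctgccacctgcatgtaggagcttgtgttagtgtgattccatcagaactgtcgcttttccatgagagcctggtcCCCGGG

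The 412 bp Ryr1 fragment on chromosome 7 starts 20419 bases downstream of the transcription start. It holds all of exon 16 and part of exon 17, 205 coding bases in all, with 57.8% GC and 9 CpG between its end sites, and lies in no CpG island or shore. The 249 bp Cacng1 fragment (chromosome 11, 107579671 to 107579919) lies upstream of the gene, at -2083 to -1835 bases from its start. It holds 1 CpG apart from its end sites, at 47.8% GC, and no annotated repeat.

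Reads were concentrated in few of the fragments. In Ryr1, the 412 bp fragment had 16159 reads over the 23 libraries, a 382 bp fragment with exon 82 had 29831, the 1056 bp intron fragment had 22459 and a 19665 bp fragment with exons 55 to 77 had 6591. The other 14 Ryr1 fragments had 0 to 68 reads each. In Cacng1, the 249 bp fragment had 65773 reads, a 415 bp intron fragment had 13935, a 2498 bp intron fragment 2445, a 2822 bp intron fragment 395 and a 3181 bp fragment with exon 2 had 208. The other 2 Cacng1 fragments had 14 and 56 reads.

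**Figure D1:**
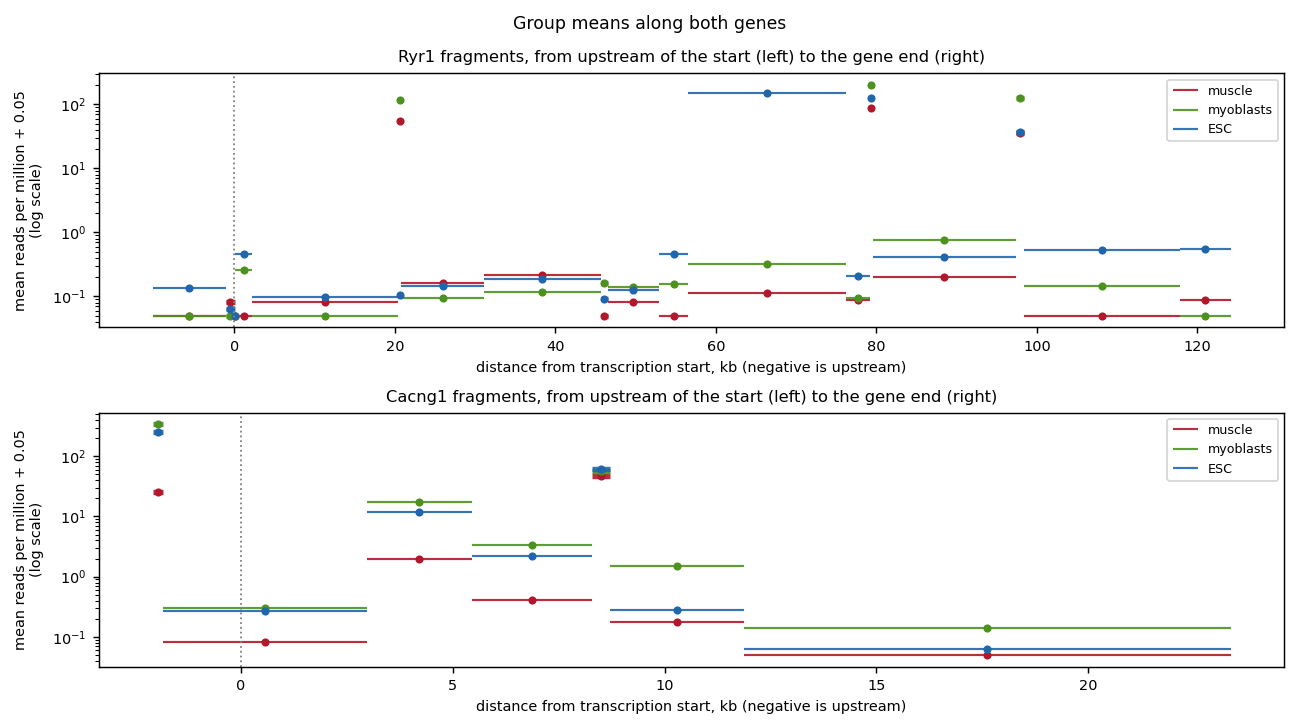
Mean CPM (plus 0.05, log axis) of each fragment in muscle, myoblasts and ESC along Ryr1 (top) and Cacng1 (bottom), by distance from the transcription start in kb; lines span a fragment and dots mark its centre. The 412 bp Ryr1 fragment near 20 kb was high in muscle and myoblasts and near the floor in ESC, and the 19665 bp fragment had the opposite order.

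At the Ryr1 start, a fragment of 1171 bp (29910057 to 29911227) had 4 reads over all 23 libraries, with at most 1 in any library. A neighbouring promoter fragment of 2103 bp had 59 reads in total, and a fragment of 9 bp between them had 0. An 855 bp fragment with part of exon 39 had 8 reads, although its length is in the range that is read well. Such near-empty fragments were common in the table: 33.9% of the 27763 fragments of 200 to under 2000 bp had 8 or fewer reads over the 23 libraries, and 63.2% of the 10279 of them at a promoter. The 4802 bp fragment with the Cacng1 start and exon 1 had 56 reads, which were spread over all groups except the CTX injury library.

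The 2 sites that bound the 412 bp fragment also bound its neighbours of 10252 and 18193 bp, which had 22 and 10 reads in all. The same held for the 382 bp fragment, whose neighbours of 17779 and 2961 bp had 67 and 13 reads. Levels below are those of the fragments with more reads, the 19665 bp one included.

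In the data of all groups, the 412 bp Ryr1 exon fragment was read in every muscle and muscle cell library and was almost absent from ESC. In muscle it had 35.7 CPM in Y-27, 82.5 in Y40 and 43.6 in the C57BL/6J animal. In myoblasts it had 24.9, 64.8 and 259 CPM in cultures 21, 27 and 26. ESC had 4 reads in the CGR8 technical replicate, which is 0.408 CPM, and 0 reads in the first CGR8 library, RD1 and E14Tg2, where 3 reads would be 0.204, 0.298 and 0.358 CPM.

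Muscle of the mixed background and of C57BL/6J both had reads of this fragment, and no library of muscle or of muscle cells overlapped ESC. Which strain's DNA gave the reads of the mixed animals was not determined. Day 1 myotubes had 31.5, 48.2 and 130.4 CPM in cultures 21, 27 and 26, day 2 myotubes had 42.9, 1.10 and 91.1 CPM, and day 4 myotubes had 7.26, 168 and 261 CPM. Freshly isolated cells had 185 CPM, those after CTX injury 166 CPM, and passage 0 cells 49.0 CPM in culture 26 and 49.6 in culture 27. Since all ESC lines are of 129 backgrounds, a CCCGGG site that is missing from their DNA and a site without methylation cannot be told apart in these counts. The lowest muscle cell library was day 2 of culture 27, with 14 reads, and it still lay above each ESC library.

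Over groups, the 412 bp fragment averaged 53.9 ± 25.1 CPM in muscle, 116 ± 125 in myoblasts, 70.0 ± 53.0 at day 1, 45.03 ± 45.03 at day 2, 145 ± 128 at day 4, 49.3 ± 0.424 in passage 0 cells (n = 2) and 0.054 ± 0.094 in ESC (n = 3 lines; n = 3 for the others). Neighbours in this order overlapped in their libraries, except that ESC lay below all. The fitted log2 change was 10.37 ± 1.33 (SE) for myoblasts over ESC, 10.80 ± 1.62 for day 4 myotubes over ESC and 9.89 ± 0.87 for muscle over ESC. Over all fragments tested, 19.9%, 11.3% and 59.1% passed the edgeR threshold in these 3 comparisons. They share the ESC libraries, and each size rests on the 4 ESC reads. Without the technical replicate, in which all 4 lie, the fitted changes were 13.36, 13.70 and 12.63, against a group with 0 reads, where a fitted change depends on the prior count and is no bound.

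**Figure D2:**
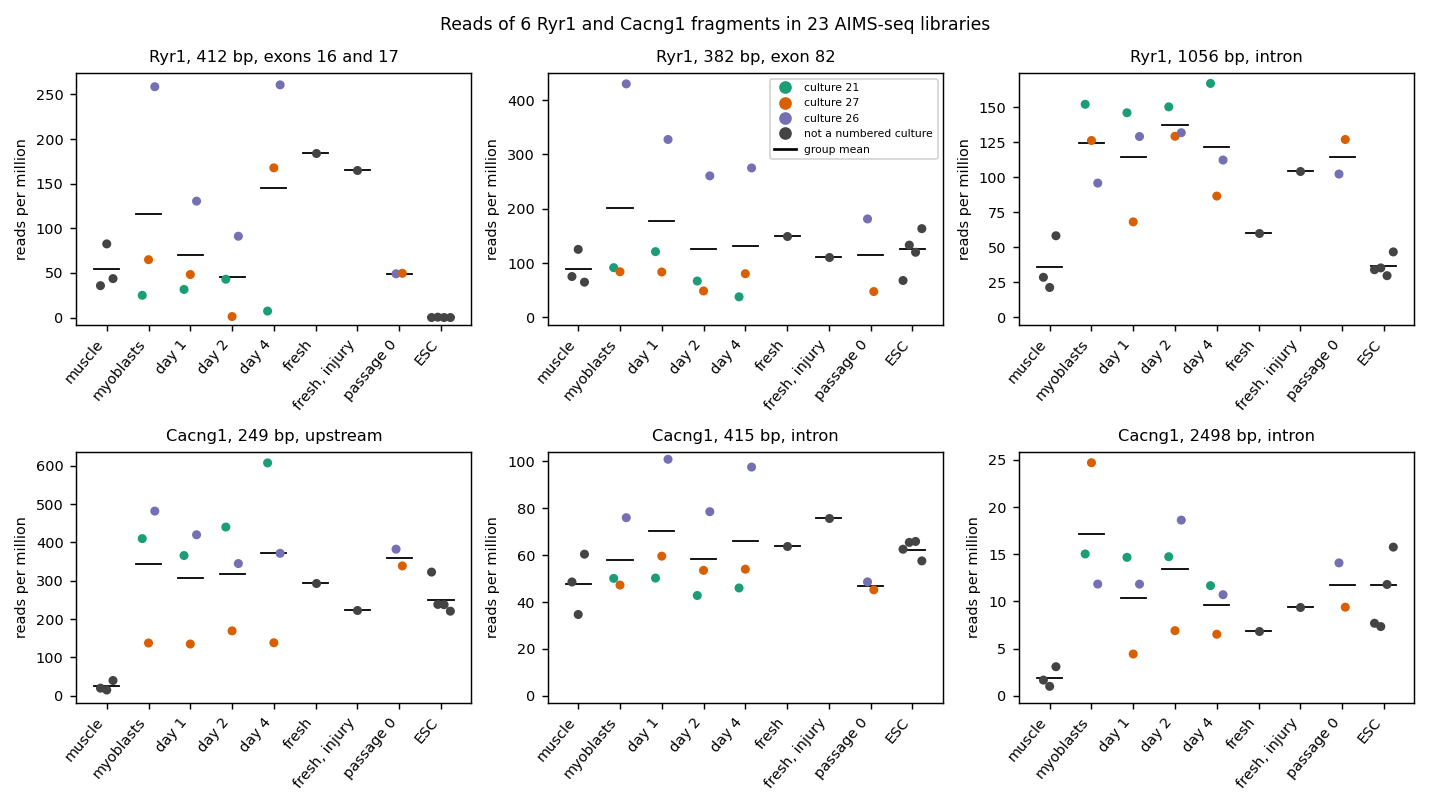
CPM in each of the 23 libraries (points) and group means (bars) for 3 Ryr1 fragments (top) and 3 Cacng1 fragments (bottom); colours mark cultures 21, 27 and 26. The 412 bp Ryr1 fragment lay at 0 to 0.408 CPM in ESC, and the 249 bp Cacng1 fragment lay at 15.2 to 39.9 CPM in muscle, below every other library.

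The other Ryr1 exon fragment of similar length did not share the ESC gap. The 382 bp fragment (29830592 to 29830973, 74 coding bases of exon 82, 58.1% GC and 11 CpG) averaged 88.6 ± 32.2 CPM in muscle, 202 ± 197 in myoblasts and 126 ± 35.1 in ESC (n = 3 each), and muscle and myoblasts both overlapped ESC. Its fitted log2 change was 0.94 ± 0.67 for myoblasts over ESC and 0.38 ± 0.40 for muscle over ESC. The first was -0.06 without the myoblast library of culture 26, and the second was -0.51 with library totals and -0.09 with only fragments under 2000 bp, so neither has a settled direction.

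The intron fragment of 1056 bp (29811757 to 29812812), which carries part of an L2 repeat and 15 CpG, separated the cultured cells from both muscle and ESC. It had 28.7, 21.4 and 58.3 CPM in the muscle libraries Y-27, Y40 and C57BL/6J, against 152, 126 and 95.9 CPM in myoblast cultures 21, 27 and 26. Its levels in day 4 myotubes were 167, 86.6 and 112 CPM. ESC had 34.1, 35.4, 29.9 and 46.8 CPM in CGR8, its technical replicate, RD1 and E14Tg2.

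Every myoblast and myotube library was above every muscle and ESC library of the 1056 bp fragment, and muscle and ESC overlapped. Freshly isolated cells, at 60.6 CPM, lay between, those after CTX injury had 105 CPM and passage 0 cells averaged 115 ± 17.4 CPM (n = 2). The fitted log2 change over ESC was 2.00 ± 0.46 for myoblasts, 2.44 ± 0.66 for day 4 myotubes and 0.73 ± 0.39 for muscle, which was -0.04 with library totals.

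The 19665 bp Ryr1 fragment (29833935 to 29853599), with exons 55 to 77 and 343 CpG, had the opposite order. It had no more than 2 reads in any muscle or day 4 myotube library and 1 to 5 reads in a myoblast library. The ESC libraries had 2730 reads in CGR8, 1203 in its technical replicate, 1198 in RD1 and 1425 in E14Tg2, which is 118.8 to 185.8 CPM.

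No other group had more than 8 reads of that fragment in all, so ESC did not overlap any of them. The fitted log2 change was -8.77 ± 0.76 for myoblasts over ESC, -10.21 ± 0.97 for day 4 myotubes over ESC and -10.18 ± 0.79 for muscle over ESC. A fragment of this length lies far outside the lengths that give most reads: 40.9% of all fragments had 10000 bp or more and together they gave 2.43% of the reads. Whether its ESC reads stand for methylation at both ends was not tested.

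Cacng1 differed in another group, muscle. The 249 bp upstream fragment had 216, 136 and 401 reads in the muscle libraries Y-27, Y40 and C57BL/6J, which is 20.0, 15.2 and 39.9 CPM. Myoblast cultures 21, 27 and 26 had 4526, 1332 and 3701 reads, which is 409.9, 138 and 482 CPM. The ESC libraries had 323 and 238 CPM in CGR8 and its technical replicate, 238 in RD1 and 221 in E14Tg2.

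The highest muscle library was below the lowest library of every other group. Day 1 myotubes averaged 307 ± 151 CPM, day 2 myotubes 318 ± 137 and day 4 myotubes 372 ± 234 (n = 3 each). Freshly isolated cells had 294 CPM, those after CTX injury 223 CPM, and passage 0 cells averaged 361 ± 30.9 CPM (n = 2). Apart from muscle, the neighbours in the order of group means overlapped.

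Muscle averaged 25.0 ± 13.1 CPM of the 249 bp fragment and ESC 249 ± 35.5 CPM (n = 3 each), a fitted log2 change of -2.58 ± 0.42. Over ESC, the fragment changed by 0.75 ± 0.60 in myoblasts and by 1.35 ± 0.79 in day 4 myotubes, and both overlapped ESC. The 2498 bp intron fragment (107572371 to 107574868), which carries part of an L1M4 repeat, averaged 1.92 ± 1.06 CPM in muscle and 11.7 ± 4.11 CPM in ESC (n = 3 each), without overlap, a fitted log2 change of -1.79 ± 0.49. All fragments of 2000 bp or longer together took 1.98 to 2.6% of the reads in muscle and 10.02 to 12.11% in ESC. The part of this in the change of the 2498 bp fragment was not tested.

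Muscle and myoblasts were then compared without ESC, which asks how mature tissue differs from the proliferating precursors. In Cacng1, the 249, 2498 and 2822 bp fragments were called lower in muscle and the 415 bp fragment was not called, while in Ryr1 none of 3 tested fragments passed. The 2498 and 2822 bp fragments needed the myoblasts, where they are high, to pass the low-count filter, so both calls are favoured by the filter. Without the filter, 2 of all 7 Cacng1 fragments were called. Over all 20274 fragments tested 31.1% passed, 13.7% as higher and 17.4% as lower in muscle. With library totals as the scaling, 24.1% of the calls over all fragments were higher in muscle, against 44.0% with TMM, and the median log2 change of all fragments was -0.65 and -0.13. The muscle libraries are those in which Cacng1 had been seen to be low against ESC, so these tests are not independent of how the gene was chosen.

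The 249 bp upstream fragment changed by -3.41 ± 0.65 on the log2 scale in muscle over myoblasts (edgeR quasi-likelihood test, Benjamini-Hochberg adjusted p = 0.0121). All 3 muscle libraries were below all 3 myoblast libraries. The call was lost without the muscle library Y-27 (-3.23, adjusted p = 0.0641) or Y40 (-3.17, adjusted p = 0.0605), and in both cases 0 of all fragments passed edgeR's adjusted threshold, although 7165 and 7725 had an unadjusted p under 0.05. DESeq2 was not run without single libraries. In the authors' deposited table, which counts fragments under 2000 bp, the same fragment had a log2 change of -3.80 and an adjusted p of 0.00037.

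Adjacent to each other in the first intron, the 2498 and 2822 bp fragments share a site. The 2498 bp fragment had 1.67, 1.00 and 3.09 CPM in the muscle libraries Y-27, Y40 and C57BL/6J, against 15.03, 24.7 and 11.8 CPM in myoblast cultures 21, 27 and 26. It changed by -2.68 ± 0.58 (edgeR adjusted p = 0.0136), without overlap. Its 9 reads in Y40 were under the filter's count of 10, so this value is given as a description. The 2822 bp fragment (107569549 to 107572370) had 3, 0 and 8 reads in muscle and 21, 48 and 25 in myoblasts, a fitted log2 change of -2.70 ± 0.85 (edgeR adjusted p = 0.0386). Each muscle library was under the filter's count of 10, so this value is given as a description.

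The edgeR calls of these long fragments were also lost without Y-27 (adjusted p = 0.0806 for the 2498 bp and 0.16 for the 2822 bp fragment) or Y40 (0.0677 and 0.109). The 2822 bp fragment further lost its call without the myoblast library of culture 27 (edgeR adjusted p = 0.104) or of culture 26 (0.0905), and without a low-count filter (0.109). Reads of fragments of 2000 bp or longer were also fewer in muscle as a whole, at 1.98 to 2.6% of reads, against 3.88 to 6.37% in myoblasts, and the part of this in the change of the pair was not tested.

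Cacng1 also held a fragment that was not called, on the downstream side of the intron pair. The 415 bp intron fragment (107569134 to 107569548, 14 CpG), which shares a site with the 2822 bp fragment, averaged 47.9 ± 12.9 CPM in muscle and 57.8 ± 15.9 CPM in myoblasts (n = 3 each), with overlap. Its fitted log2 change was 0.21 ± 0.46 (edgeR adjusted p = 0.759), and -0.27 with library totals. Over the 7 groups with replicates its means lay from 46.9 to 70.2 CPM, and neighbours in that order overlapped.

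In Ryr1, the 412 bp exon fragment changed by -0.49 ± 0.80 in muscle over myoblasts (edgeR adjusted p = 0.668), with overlapping groups. Without the myoblast library of culture 26, its highest, the change was 0.93. The 382 bp fragment changed by -0.60 ± 0.71 (edgeR adjusted p = 0.541). The 1056 bp intron fragment changed by -1.38 ± 0.51 (edgeR adjusted p = 0.0642), with all muscle libraries below all myoblast libraries. It passed with library totals (-1.79, edgeR adjusted p = 0.0356) and when only fragments under 2000 bp were fitted (-1.60, edgeR adjusted p = 0.047). It did not pass with DESeq2 (-1.31, adjusted p = 0.0889). With edgeR it also did not pass with DESeq2 size factors (adjusted p = 0.074) or without a low-count filter (adjusted p = 0.356). With any single library left out it did not pass either (-1.60 to -0.95, edgeR adjusted p = 0.0786 to 0.304). In the authors' deposited table it had a log2 change of -1.82 and an adjusted p of 6.2e-06.

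**Figure D3:**
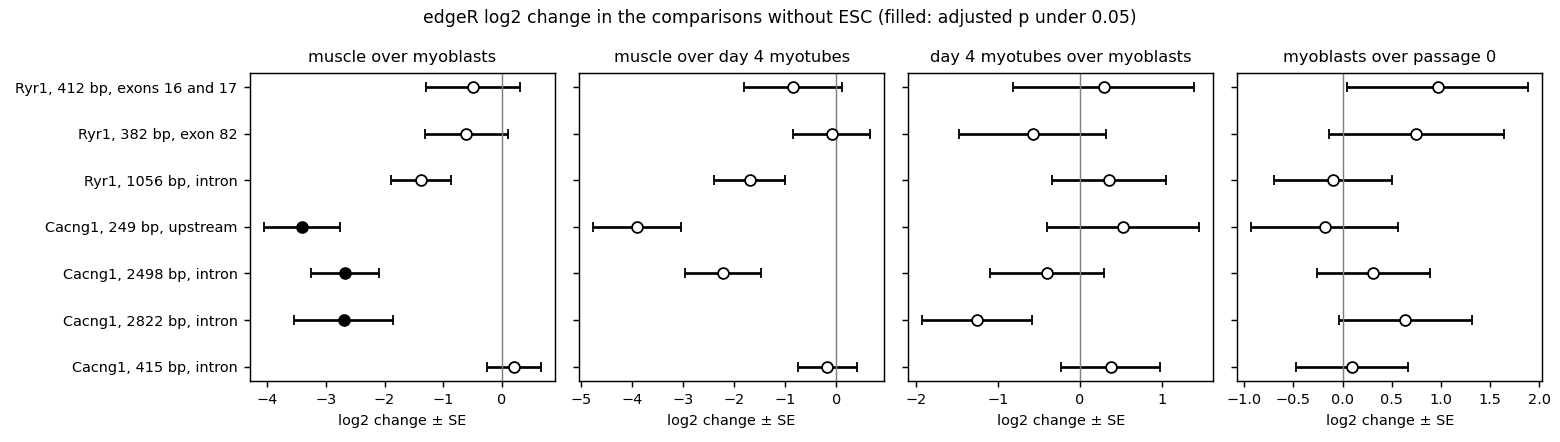
Fitted log2 change with its SE for 7 fragments in the 4 comparisons without ESC; filled points have an edgeR adjusted p under 0.05. The filled points are the 249, 2498 and 2822 bp Cacng1 fragments in muscle over myoblasts, at -3.41, -2.68 and -2.70.

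Muscle was also compared with the day 4 myotubes, the most differentiated cultured cells. Here 0.0% of the 19353 fragments tested passed with edgeR, while 4613 had an unadjusted p under 0.05 and 1948 passed with DESeq2. Of the tested fragments, 1 of 3 in Ryr1 and 2 of 3 in Cacng1 had an unadjusted edgeR p under 0.05. The muscle libraries are shared with the comparison against myoblasts, and strain differs in part here too.

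The 249 bp Cacng1 fragment averaged 25.0 ± 13.1 CPM in muscle and 372 ± 234 CPM in day 4 myotubes (n = 3 each), without overlap. It changed by -3.91 ± 0.86 (edgeR adjusted p = 0.138). It passed with DESeq2 (-3.88, adjusted p = 0.00179), with edgeR and no low-count filter (-3.76, adjusted p = 0.00142) and with edgeR without the day 4 library of culture 21 (-2.78, adjusted p = 0.03), which had the most reads of it, at 607 CPM. With edgeR it did not pass with DESeq2 size factors, library totals, only fragments under 2000 bp or any other single library left out. In the authors' deposited table it had a log2 change of -3.91 and an adjusted p of 0.00697.

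The 2498 bp Cacng1 fragment averaged 1.92 ± 1.06 CPM in muscle and 9.64 ± 2.74 CPM in day 4 myotubes (n = 3 each), and changed by -2.22 ± 0.75 (edgeR adjusted p = 0.146), without overlap. The 1056 bp Ryr1 fragment changed by -1.70 ± 0.69 (edgeR adjusted p = 0.188), without overlap, and had an adjusted p of 0.00376 in the authors' deposited table. The 412 bp and 382 bp Ryr1 fragments changed by -0.85 ± 0.96 and -0.09 ± 0.75 (edgeR adjusted p = 0.596 and 0.952), with overlap.

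Differentiation was followed in the same 3 cultures, and the main fit did not use the pairing by culture. For day 4 myotubes over myoblasts, 0.0% of 22438 fragments passed with edgeR, 83 had an unadjusted p under 0.05 and 0 passed with DESeq2. With culture as a block 39 passed, and none of them was a Ryr1 or Cacng1 fragment. The 8 tested fragments of the 2 genes all had an unadjusted edgeR p of 0.0935 or more without the block, and of 0.05 or more with it. Among them, the 412 bp Ryr1 fragment changed by 0.29 ± 1.10 and by 0.11 ± 0.47 with the block. The 249 bp Cacng1 fragment changed by 0.52 ± 0.93 and by 0.30 ± 0.43 with the block. The Cacng1 intron pair was lower at day 4 in each of the 3 cultures, without passing the test with or without the block. Its 2 fragments share a site, so they are not separate observations. The share of all fragments that are lower in each culture was not counted, so this does not set the pair apart. Changes given for the pair are from the fit without the block. The 2822 bp fragment had 0.631, 1.16 and 1.80 CPM in day 4 myotubes of cultures 21, 27 and 26, against 1.90, 4.96 and 3.25 CPM in their myoblasts (log2 change -1.25 ± 0.67, edgeR adjusted p = 1). It passed the low-count filter only through the myoblasts, where it is high. The 2498 bp fragment had 11.7, 6.53 and 10.7 CPM in day 4 myotubes of the same cultures, against 15.03, 24.7 and 11.8 CPM in their myoblasts (log2 change -0.41 ± 0.70, edgeR adjusted p = 1). Fragments of 2000 bp or longer took 3.88, 6.37 and 4.43% of the reads in myoblasts of cultures 21, 27 and 26. At day 4 they took 2.52, 4.76 and 4.55%, and the part of this in the pair was not tested.

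Long culture was examined with late passage myoblasts over passage 0 cells. Here 0.0% of 23419 fragments passed with edgeR, 665 had an unadjusted p under 0.05, 12 passed with DESeq2 and 996 with edgeR and culture as a block. No fragment of Ryr1 or Cacng1 passed under any of these. Passage 0 had only cultures 26 and 27, so culture 21 adds nothing to the blocked change. The block also leaves little from which to estimate the spread, which limits its calls and SE. Between these, the 412 bp Ryr1 fragment changed by 0.97 ± 0.92 and by 0.98 ± 0.68 with the block. The 249 bp Cacng1 fragment changed by -0.18 ± 0.75 and by -0.89 ± 0.98 with the block.

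In several fragments the same culture was highest or lowest at each stage of differentiation, while the other two changed places. Culture 26 had the highest CPM of the 412 bp, 382 bp and 415 bp fragments in 4 of 4 stages, and culture 21 that of the 1056 bp fragment. The share of all fragments with such a constant order was not counted, so this is no trait particular to these fragments. In the 382 bp Ryr1 fragment culture 26 had 429.7, 328, 261 and 275 CPM in myoblasts and at days 1, 2 and 4. Culture 21 had 91.7, 121, 67.1 and 38.0 CPM, and culture 27 had 84.1, 83.7, 48.8 and 80.6 CPM.

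Culture 26 lay above both others at each stage of the 382 bp fragment, and also at passage 0, with 181 CPM against 47.7 CPM in culture 27. The 412 bp Ryr1 fragment did not keep this at passage 0, where cultures 26 and 27 had 49.0 and 49.6 CPM. In culture 27 that fragment had 1.10 CPM at day 2 and 168 CPM at day 4.

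In the 249 bp Cacng1 fragment culture 27 was lowest in 4 of 4 stages, at 138, 135, 169 and 138 CPM, against 345 CPM or more in both other cultures. At passage 0 culture 27 had 339 CPM and culture 26 had 382 CPM. The lower level of culture 27 was thus not present in its passage 0 library. With 1 library per culture and stage, culture and library cannot be told apart at a single stage.

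**Figure D4:**
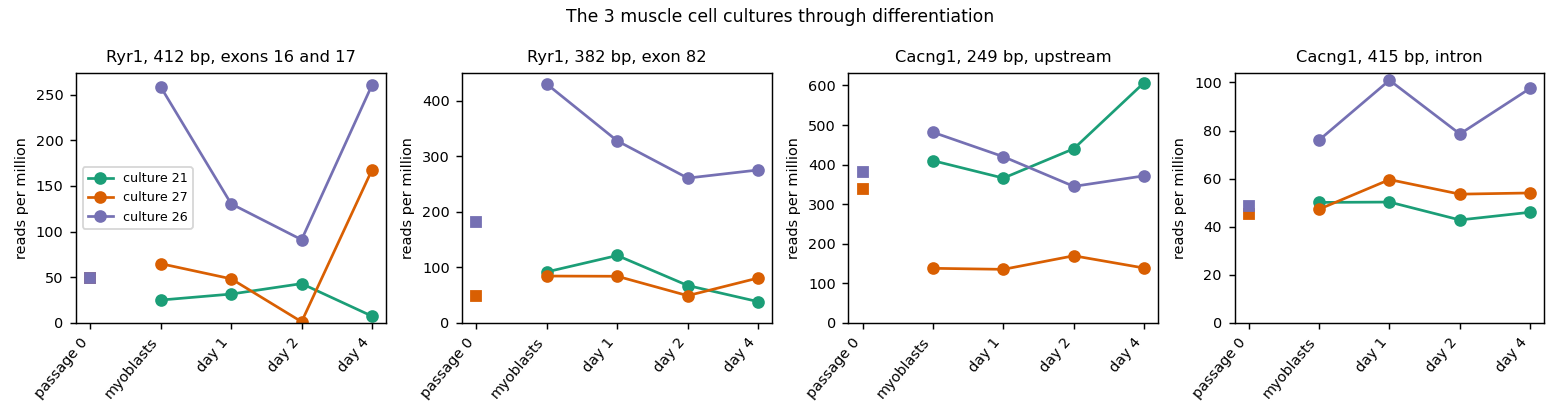
CPM of 4 fragments in cultures 21, 27 and 26 at passage 0 (squares; no library of culture 21), in late passage myoblasts and at days 1, 2 and 4 of differentiation (joined points). Culture 26 was highest for the 412, 382 and 415 bp fragments at each joined stage, and culture 27 was lowest for the 249 bp fragment.

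The other genes of muscle calcium handling were described through 4 lists with 56 genes and 633 fragments, which leave out Ryr1 and Cacng1. For myoblasts over ESC, 2 of the 81 tested fragments passed as higher and 11 as lower, beside 8.22% and 11.7% of all fragments. For day 4 myotubes over ESC 2 of 85 were higher and 5 lower, beside 5.42% and 5.93% of all. For muscle over ESC 16 of 83 were higher and 34 lower, beside 24.4% and 34.6% of all. For muscle over myoblasts 11 of 65 were higher and 13 lower, beside 13.7% and 17.4% of all, and the other comparisons had no call.

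The median log2 change of the 65 fragments in muscle over myoblasts was 0.12, beside -0.13 over all fragments tested. Among the release channels, 3 of 16 fragments were higher and 5 lower in muscle. A 465 bp fragment of Itpr3, an inositol trisphosphate receptor, averaged 413 ± 245 CPM in muscle and 105 ± 38.9 CPM in myoblasts (n = 3 each, edgeR adjusted p = 0.0158), and a 1095 bp fragment of Itpr1, its relative, 8.86 ± 6.68 CPM in muscle and 63.8 ± 25.2 CPM in myoblasts (n = 3 each, edgeR adjusted p = 0.0194).

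Among the voltage-gated calcium channel subunits, the list nearest to Cacng1, 7 of 31 fragments were higher in muscle and 3 lower. A 433 bp fragment of Cacna1c, the pore subunit of the cardiac L-type channel, averaged 405 ± 115 CPM in muscle and 66.3 ± 40.01 CPM in myoblasts (n = 3 each, log2 change 3.26 ± 0.55, edgeR adjusted p = 0.012). A 230 bp fragment of Cacna2d2, an auxiliary alpha2delta subunit, averaged 20.9 ± 11.4 CPM in muscle and 170.1 ± 57.1 CPM in myoblasts (n = 3 each, log2 change -2.63 ± 0.57, edgeR adjusted p = 0.0136). Fragments of this list thus passed in both directions, as they did in 1 gene: Cacna2d2 also had a 243 bp fragment at 155 ± 48.1 CPM in muscle and 0.041 ± 0.071 CPM in ESC (n = 3 each, edgeR adjusted p = 9.33e-06), and a 1643 bp promoter fragment at 0.884 ± 0.202 CPM in muscle and 8.68 ± 5.30 CPM in ESC (n = 3 each, edgeR adjusted p = 0.00855). Both of these passed the low-count filter only through the group where they are high, so their calls are favoured by the filter.

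Among triad and coupling proteins, 0 of 10 fragments were higher in muscle than in myoblasts and 2 were lower. A promoter fragment of Stac3, an adaptor that the coupling of Cav1.1 to Ryr1 needs, averaged 10.8 ± 2.94 CPM in muscle and 44.1 ± 5.89 CPM in myoblasts (n = 3 each, log2 change -1.54 ± 0.45, edgeR adjusted p = 0.0319). A fragment of Homer2, a scaffold protein that binds calcium channels, averaged 24.0 ± 3.42 CPM in myoblasts and 0.142 ± 0.167 CPM in ESC (n = 3 each, edgeR adjusted p = 0.000373). Like the 412 bp Ryr1 fragment it had almost no ESC reads, and it averaged 19.5 ± 9.01 CPM in day 4 myotubes (n = 3, edgeR adjusted p = 0.00315 against ESC). The Homer2 fragment passed the low-count filter only through the cultured cells, where it is high, so both calls are favoured by the filter.

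For the comparisons with ESC, the further fragments that the naming rule gives are these. A 1332 bp fragment of Cacna2d2 averaged 0.121 ± 0.131 CPM in myoblasts and 2.96 ± 0.766 CPM in ESC (n = 3 each, edgeR adjusted p = 0.0049), and its 243 bp fragment averaged 38.5 ± 45.6 CPM in day 4 myotubes and 0.041 ± 0.071 CPM in ESC (n = 3 each, edgeR adjusted p = 0.00521). Both Cacna2d2 calls are favoured by the low-count filter, which these fragments passed only through the group where they are high. The Stim1 fragment averaged 21.03 ± 1.08 CPM in myoblasts and 9.15 ± 2.13 CPM in ESC (n = 3 each, edgeR adjusted p = 0.0493), and the Slc8a3 fragment 4.89 ± 3.91 CPM in myoblasts and 55.0 ± 6.08 CPM in ESC (n = 3 each, edgeR adjusted p = 0.00616). Stim1 senses calcium in the sarcoplasmic reticulum and Slc8a3 is a sodium/calcium exchanger.

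In muscle, a promoter fragment of Itpr2, a further inositol trisphosphate receptor, averaged 45.8 ± 20.1 CPM against 9.55 ± 5.73 CPM in ESC (n = 3 each, edgeR adjusted p = 0.00123). The Itpr1 fragment averaged 8.86 ± 6.68 CPM in muscle and 74.1 ± 8.61 CPM in ESC (n = 3 each, edgeR adjusted p = 0.00211). A promoter fragment of Atp2a3, a calcium pump of the endoplasmic reticulum, averaged 0.396 ± 0.139 CPM in muscle and 8.24 ± 6.34 CPM in ESC (n = 3 each, edgeR adjusted p = 0.00462). This Atp2a3 fragment passed the low-count filter only through ESC, where it is high, so its call is favoured by the filter. Of the 18 tested fragments of release channel genes, 2 were higher and 8 lower in muscle than in ESC, beside 24.4% and 34.6% of all fragments, with a median log2 change of -0.67 beside -0.34 over all.

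A promoter fragment of Fkbp1b, which binds and stabilises ryanodine receptors, averaged 11.6 ± 3.30 CPM in muscle and 0.605 ± 0.283 CPM in ESC (n = 3 each, log2 change 5.18 ± 0.58, edgeR adjusted p = 8.55e-05). It passed the low-count filter only through muscle, where it is high, so its call is favoured by the filter. Among genes of calcium reuptake, buffering and store entry, 1 of 8 fragments was higher in muscle than in myoblasts and 3 were lower. The Slc8a3 fragment averaged 30.9 ± 3.75 CPM in muscle and 4.89 ± 3.91 CPM in myoblasts (n = 3 each, log2 change 3.34 ± 0.76, edgeR adjusted p = 0.0153). The Stim1 fragment averaged 4.24 ± 2.28 CPM in muscle and 21.03 ± 1.08 CPM in myoblasts (n = 3 each, log2 change -1.86 ± 0.52, edgeR adjusted p = 0.0275). All calls of muscle over myoblasts in these lists fall with those of the whole table, in which 0 fragments passed edgeR's threshold without Y-27 or without Y40.

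The fragments most like the 412 bp Ryr1 fragment were sought among 8100 fragments of 200 to under 2000 bp, by Pearson's r of log2(CPM + 1) over 22 samples. The closest lay in Daglb (r = 0.986), Poc1a (0.983), Rnf165 (0.978), Csrp2bp (0.969) and Slc39a11 (0.968), and the median r over all candidates was 0.049. All 5 had means of 0.991 CPM or less in ESC. The Poc1a fragment, for one, averaged 167 CPM in muscle, 365 CPM in myoblasts and 0.991 CPM in ESC. The 22 samples share cultures and ESC lines, so the points are not independent.

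Closest to the 249 bp Cacng1 fragment were fragments of Aldh4a1 (r = 0.974), Rhobtb1 (0.966), Maml1 (0.964), Ttn (0.963), which encodes the giant sarcomere protein titin, and Ctbp2 (0.963; the fragment also lies in Fgfr2), with a median of 0.003 over all candidates. The Ttn fragment (303 bp, chromosome 2, 76589158 to 76589460) averaged 95.7 CPM in muscle, 977 CPM in myoblasts and 572 CPM in ESC. The 412 bp Ryr1 fragment and the 249 bp Cacng1 fragment did not move together over the 22 samples (r = -0.035). Within Cacng1, the 2498 bp fragment followed the 249 bp one with r = 0.832 and the 415 bp fragment with r = 0.376, and the 1056 bp Ryr1 fragment followed it with r = 0.692.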

How the data were processed

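The AIMS-seq reads, from an Illumina GA2, were mapped to mm9, as the protocols in the labels state. Bowtie 0.11.3 and DESeq appear in the submitters' processing notes, and a DESeq version or a read filter is not given in the sources used here. The authors deposited raw read counts per fragment and library, which were taken as they are, and comparison tables with log2 values and adjusted p-values (the pooled kind is quoted), per the file headers. Further columns of per-sample values, 184 in number, were not used.

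Genes and exons came from GENCODE M1 on mm9, whose sequence was also the source of the fragments printed, and 100.0% of the fragment ends on chromosomes 7 and 11 lie at CCCGGG. A promoter spans from 2000 bp before a start to 500 bp after it. CpG and repeat classes are the authors'.

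The main test was the quasi-likelihood test of edgeR 4.0.16 in R 4.3.3 on the raw counts of both groups, in 7 comparisons, with TMM scaling, the filterByExpr filter at a count of 10, 2-sided p-values, Benjamini-Hochberg adjustment over all tested fragments and a threshold of 0.05. The procedure was run on simulated counts for muscle over myoblasts, with few changed fragments and large changes. This checks the code and does not measure error rates in these data. The CGR8 libraries were summed. Alternatives were DESeq2 1.42.0, scaling by its size factors or by library totals, leaving the filter out, fitting only fragments under 2000 bp, omitting each library in turn and adding culture as a block. Titles give the culture numbers for the block. Deviations of libraries of the same culture correlated with r = 0.85, 0.657 and 0.69 for day 4 myotubes and myoblasts, and with 0.297 for myoblasts and passage 0 cells. The last value uses cultures 26 and 27 alone. Both must then give the same r, and pairs of unlike culture its negative, so it is not comparable with the others. P-values measure the spread between these libraries. Reads carry no molecular identifiers, so floors of 3 reads cover counting error only. Tables were made with pandas 2.3.3 and numpy 2.4.6, and figures with matplotlib 3.10.9.

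The genes, fragments and lists were chosen with earlier results of these data known. Fragments of Ryr1 and Cacng1 that were tested in any comparison are named. Each list contributes, per comparison and direction, its called fragment under 2000 bp of lowest adjusted p. For likeness, the 5 fragments of highest r are named, from genes other than Ryr1 and Cacng1, with 10 or more reads in at least 3 libraries, and clone names are left out.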

Additional observations from a re-analysis of the deposited data

Results flagged for a closer look

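In the 412 bp Ryr1 exon fragment, 1 ESC library lay apart from the others of its group. The technical replicate of CGR8 had 4 reads, which is 0.408 CPM, and the other 3 ESC libraries had 0 reads, among them the first library of the same line. With the other 3 libraries at 0, a single read would have set a library apart in the same way, so the usual rate of chance flags, about 1 in 20 groups, does not apply here. The level is near that of 3 reads, at 0.306 CPM in the same library.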

How the results depend on the processing

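With fragments under 2000 bp alone, calls numbered 2636 for myoblasts over ESC (5005 in the fit reported), 1077 for day 4 myotubes over ESC (2893), 8272 for muscle over ESC (13575) and 4066 for muscle over myoblasts (6309). Without a low-count filter there were 6173 calls for day 4 myotubes over ESC, 522 for muscle over day 4 myotubes, 107 for day 4 myotubes over myoblasts and 51 for myoblasts over passage 0. DESeq2 gave 5345, 1948, 0 and 12 for the same comparisons. The culture block gave 39 and 996 for the last pair and called no fragment of Ryr1 or Cacng1. Leaving out 1 library gave 3247 to 7419 calls for myoblasts over ESC, 2040 to 6146 for day 4 myotubes over ESC, 0 to 8107 for muscle over myoblasts (3497 without culture 27 and 3196 without culture 26) and 0 to 2390 for muscle over day 4 myotubes, the highest without culture 21. With library totals, 25.2% of the calls of muscle over ESC were higher, against 41.4% with TMM.

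Over ESC, the 412 bp Ryr1 fragment changed by 9.02 to 13.34 in myoblasts, 10.24 to 13.67 in day 4 myotubes and 9.45 to 12.59 in muscle when 1 line or library was left out, by 13.36, 13.70 and 12.63 without the technical replicate, and by 9.16 in muscle with library totals. With library totals the 249 bp Cacng1 fragment changed by -3.31 in muscle over ESC. In muscle over myoblasts it ranged from -3.85 to -3.05, and in muscle over day 4 myotubes from -4.41 to -2.78, with 1 library left out, and was called there at -3.76 without a filter and at -3.88 with DESeq2.

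Over ESC, where the values are not tested, signs turned for the 382 bp fragment (-0.06 in myoblasts and -0.39 in day 4 myotubes without culture 26, and -0.51 in muscle with library totals and -0.09 under 2000 bp), for the 1056 bp fragment (-0.04 in muscle with library totals), for the 2498 bp fragment in day 4 myotubes (-0.28 with library totals and -0.06 without culture 21) and for the 415 bp fragment (-0.11 in myoblasts with library totals and -0.05 without E14Tg2, and -0.38 in muscle with library totals and -0.05 under 2000 bp). In the other comparisons, signs turned only in changes that had not passed the test. With 1 library left out, muscle over myoblasts ranged from -1.02 to 0.93 (412 bp), -1.02 to 0.54 (382 bp) and -0.03 to 0.42 (415 bp). Muscle over day 4 myotubes ranged from -0.45 to 0.87 (382 bp) and -0.45 to 0.02 (415 bp). Day 4 myotubes over myoblasts ranged from -0.53 to 1.81 (412 bp), -0.46 to 0.79 (1056 bp), -1.57 to 0.64 (382 bp), -0.58 to 0.29 (3181 bp) and -0.60 to 0.98 (249 bp). Myoblasts over passage 0 ranged from -0.49 to 1.44 (412 bp), -0.53 to 0.34 (1056 bp), -0.37 to 1.64 (382 bp), -0.10 to 0.44 (415 bp) and -0.52 to 0.35 (249 bp). The 415 bp fragment was at -0.27 with library totals and -0.02 under 2000 bp in muscle over myoblasts, and at -0.06 with the culture block in myoblasts over passage 0. The 1056 bp fragment was at -0.03 in day 4 myotubes over myoblasts and at 0.12 in myoblasts over passage 0 with library totals, and the 3181 bp fragment at 0.03 with DESeq2 in day 4 myotubes over myoblasts. The cause was not tested. Groups of 2 or 3 libraries limit all tests, and fragments with few reads, among them 14 of 18 in Ryr1, did not pass the low-count filter at this depth.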

Other observations

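Patterns like those of the 412 bp and 19665 bp Ryr1 fragments were counted over the whole table with limits chosen after their values had been seen. Of the fragments of 200 to under 2000 bp, 169 had 1 CPM or less in each ESC library and 20 CPM or more in each myoblast library, as the 412 bp fragment had. Of the 70934 fragments of 10000 bp or longer, 25 had 100 CPM or more in each ESC library and 2 CPM or less in each other library, as the 19665 bp fragment had. Those 25 gave 9.5% of the ESC reads of such long fragments.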
